A study of Homo sapiens with 6 samples.

Results

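The genes described here form the machinery of glucose uptake, glycolysis and the hypoxia response, and were examined in CAL-27 cells after knockdown of XBP-1s. The list held 41 genes out of 19740 named genes with a probe on the array, and its members were chosen by known role: glucose transporters, glycolytic enzymes, the lactate and pyruvate branch, regulators of glycolytic flux, hypoxia-inducible factors (HIFs), the oxygen sensors that control them, and HIF targets. The choice was made with earlier results of these data known. Of the 41 genes, 40 had at least 1 probe, ALDOA had no probe matched by accession, and the 40 genes were represented by 50 probes, of which 30 genes had 1 probe and 10 genes had 2.

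CAL-27 is an established line from a human tongue squamous cell carcinoma. Total RNA was profiled on 6 Cy3 arrays of the Agilent whole human genome type, 3 for CAL-27 cells stably transduced with shRNA targeting XBP-1s (called shXBP-1s) and 3 for CAL-27 cells carrying the negative control (called shCtrl). XBP-1s is the spliced, active form of the transcription factor XBP1, made when IRE1 senses unfolded proteins in the endoplasmic reticulum, and the study used the arrays to find genes that change with its loss. The sources used here do not say how many shRNA sequences or clones were used, or whether the samples of a group were separate cultures, so that p-values measure the spread between these samples, which may be technical.

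Glucose enters cells through facilitative transporters of the SLC2A family and is split in the cytosol to pyruvate by the glycolytic enzymes. Pyruvate is then either reduced to lactate and exported by monocarboxylate transporters or oxidised in mitochondria, and squamous carcinoma cells are known for using the lactate route even with oxygen present. HIFs are dimers of an oxygen-labile alpha subunit and ARNT. Prolyl hydroxylases of the EGLN family mark the alpha subunit for destruction when oxygen is available, and many glycolytic genes are known HIF targets.

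XBP1 itself was measured first. Signals are given throughout as log2 of the background-subtracted spot intensity minus the 75th percentile of its array, and a log2 fold change is the shXBP-1s mean minus the shCtrl mean on that scale. The XBP1 log2 signal was 1.88, 1.85 and 1.87 on the shCtrl arrays and -0.50, -0.54 and -0.52 on the shXBP-1s arrays. All 3 knockdown arrays lay below all 3 control arrays, at 19.1% of the control level (log2 fold change -2.39, SE 0.04). The accession of this probe does not separate the spliced from the unspliced transcript.

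A few facts about the arrays bear on every value. Between 82.1% and 84.8% of spots were well above background, no spot was saturated, and the 75th percentile of the signal was higher on the shXBP-1s arrays (792 to 983 intensity units) than on the shCtrl arrays (687 to 761), a difference of 0.27 on the log2 scale. By scan time, shCtrl arrays 2 and 3 form 1 set and shCtrl array 1 with all 3 shXBP-1s arrays the other. Each set is taken here as a slide, which the sample titles do not name. All 8 squamous markers (KRT5, KRT14, KRT17, TP63, CDH1, EPCAM, SFN and DSG3) were above background on all 6 arrays, and their summed log2 signal ranged from 6.67 to 6.77 in shCtrl and from 7.08 to 7.32 in shXBP-1s. On the log2 scale KRT14 rose by 1.58, KRT17 by 1.53, KRT5 by 1.43, DSG3 by 1.17, TP63 by 0.93 and SFN by 0.71. CDH1 (0.13) and EPCAM (0.01) did not pass the test. Of 6 fibroblast markers, 5 were above background on all arrays and COL3A1 on none, with summed log2 signals of -0.06 to 0.08 in shCtrl and -0.60 to -0.56 in shXBP-1s. The fibroblast markers did not move together, since PDGFRB fell by 1.28 on the log2 scale and COL1A1 by 0.63 while LUM rose by 1.94 and the tested DCN probe by 1.43. Of 6 leukocyte markers, the 5 with a probe were all above background, led by CD14, with sums of 2.18 to 2.68 in shCtrl and 1.69 to 1.81 in shXBP-1s. The sum of 4 endothelial markers, all above background, was -2.22 to -1.86 in shCtrl and -1.95 to -1.85 in shXBP-1s. The part of these marker levels in the results that follow was not tested, and in bulk RNA fewer cells of a type and less RNA per cell cannot be told apart.

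Of the 50 member probes, 49 were bright enough to test, meaning that the scanner software called them well above background on every array of shCtrl, of shXBP-1s or of both, and they were fitted with limma among 27624 such probes. With Benjamini-Hochberg adjustment at 0.05, 28 of the 49 member probes (57.1%) were lower in shXBP-1s and 7 (14.3%) were higher, while 14 did not pass. Among all tested probes 23.3% were lower and 18.4% were higher, 41.7% in either direction, so the rises among the members were no more frequent than the background. The median log2 fold change was -0.26 over the member probes and -0.02 over all tested probes, and 36 of the 49 member probes had a value below 0. The groups did not overlap for 36 member probes. The background for such separation was 52.4% of all tested probes. A change of at least 2-fold was called for 6 member probes that were lower and 1 that was higher, where the background was 2.61% lower, 2.29% higher and 4.9% either way.

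By gene, 23 members were lower with every tested probe, 5 were higher with every tested probe (CA12, EGLN1, HK1, NDRG1 and P4HA2), and 8 had no probe that passed (ARNT, EPAS1, LDHA, P4HA1, PFKFB4, PFKL, PFKP and PKM). HK2 and VEGFA each had 1 probe higher and 1 that did not pass, and PFKFB3 and PGAM1 each had 1 probe lower and 1 that did not pass. These classes were not counted over all named genes, so the gene counts have no background share here. Member probes were bright, with 39 of 49 above the 75th percentile of the array. At that brightness the median was -0.27 for members and -0.06 for all 7265 tested probes, of which 33.3% were lower and 20.1% higher. Of the 39 member probes there, 25 were lower (64.1%) and 5 higher (12.8%). Over 791 probes brighter still, more than 4 log2 units above the 75th percentile, the median was -0.09, with 25.0% lower and 7.71% higher. The 17 member probes in that range had a median of -0.27 with 13 lower and 1 higher.

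**Figure D1:**
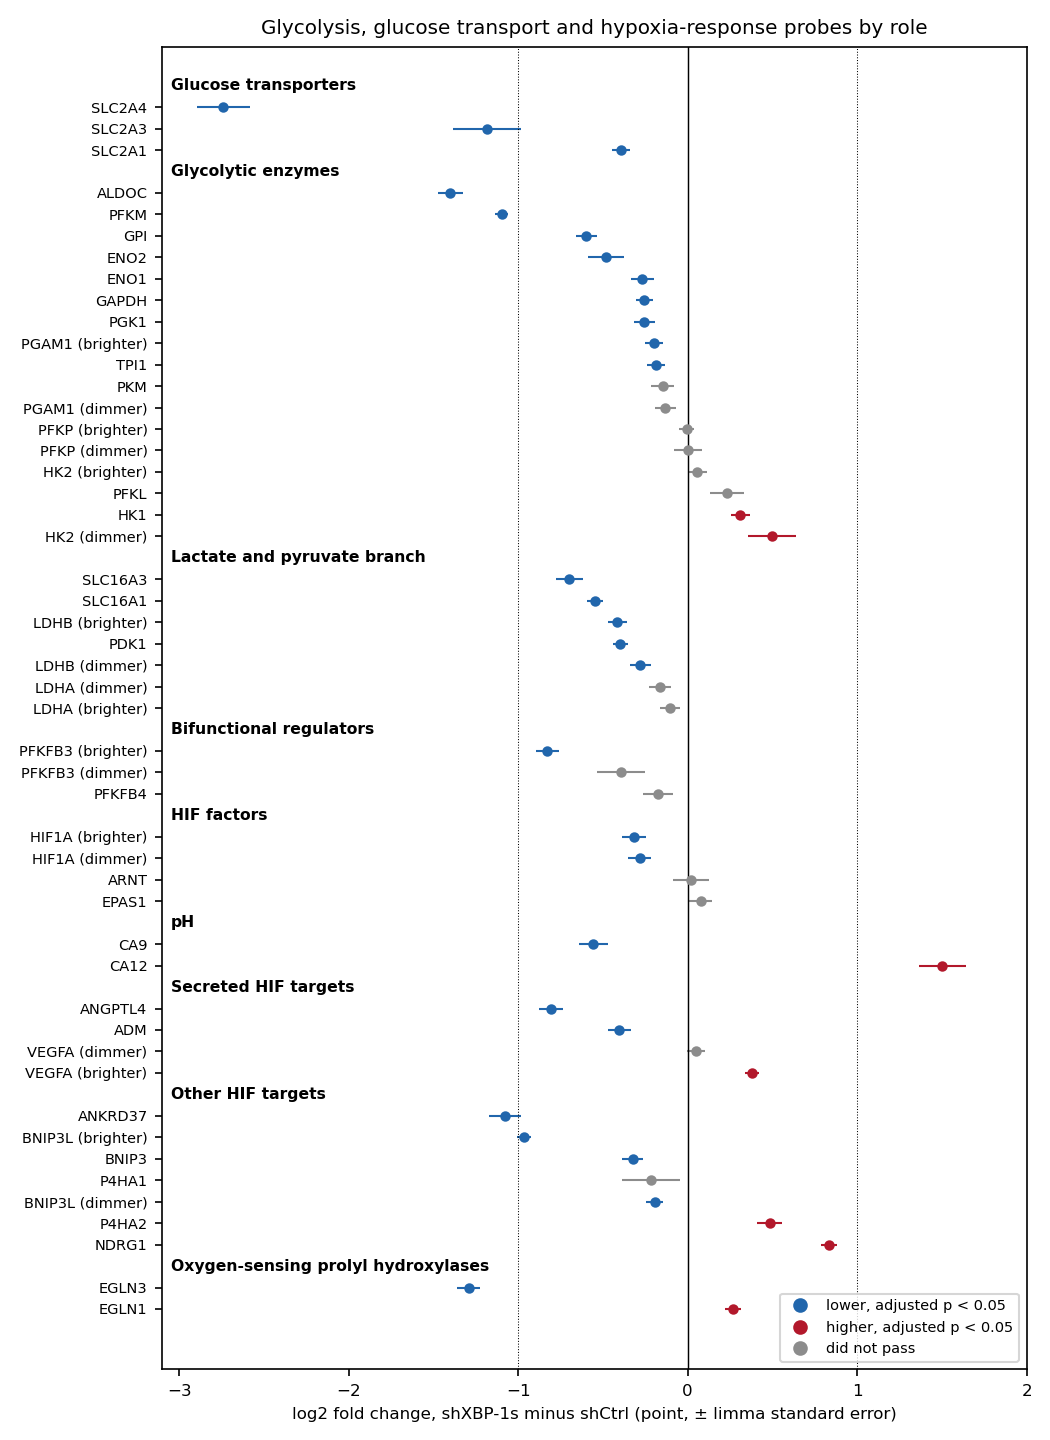
Log2 fold change (shXBP-1s minus shCtrl, n = 3 each) of the 49 tested member probes, grouped by role, with bars of 1 limma standard error and dotted lines at 2-fold. Most points lie left of 0, SLC2A4 is the farthest left at -2.74, and CA12 at 1.50 is the single point past the right line.

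The number of members that passed depended on the scale. Without any scaling between arrays, which was tried after the data were seen, the median over all tested probes moved to 0.25 and that of the members to 0.02, and 11 member probes were lower and 11 higher, so that 50% of the member calls were falls, against 80% with scaling. Over all tested probes 6.86% were lower and 33.6% higher in that fit, and 16.9% of all calls were falls, against 22.4% of the member probes lower and 22.4% higher. The scaling changes every log2 fold change by the same amount. The distance between the medians of the members and of all probes was therefore -0.23 both ways by construction. Under normexp background correction, the median over all probes was -0.41 and that of the members -0.16, so that the members then lay above the median. The calls in that fit were 12 member probes lower (24.5%) and 5 higher (10.2%), where 8.86% of all tested probes were lower and 7.45% higher. The falls of SLC2A1, ENO2, PDK1, SLC16A1, CA9, ADM and BNIP3 and of both probes of LDHB and HIF1A kept their direction but no longer passed without scaling. A small fall in the paragraphs that follow is thus a fall relative to the 75th percentile of the array.

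**Figure D2:**
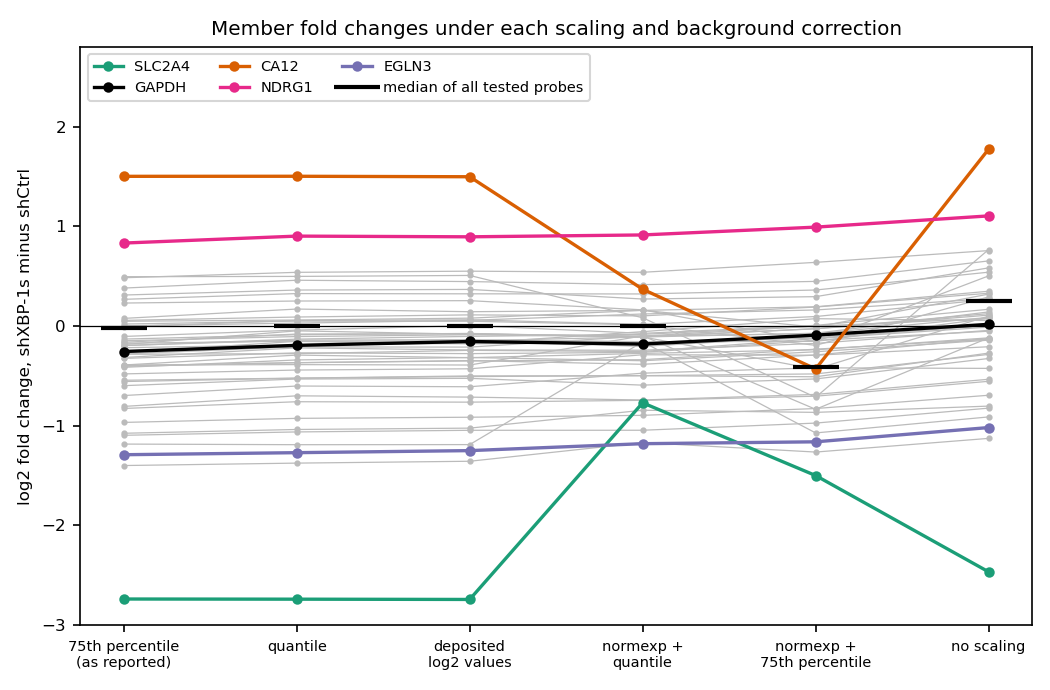
Log2 fold change of each member probe (grey, with 5 probes coloured) under 6 scalings and background corrections, with black bars for the median of all tested probes. GAPDH moves from -0.26 to 0.02 without scaling, EGLN3 stays below -1 in all 6, and the dim probes for SLC2A4 and CA12 move most under normexp.

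The promoters of a few members show what the sequence around their start sites holds. RefSeq (GRCh38.p14) gave windows of 300 bases around the gene start, most of each window upstream, for 35 of the 41 members, 62 windows in all. The HIF core was searched as ACGTG and GCGTG on both strands, so that CACGTG counts as ACGTG on each strand. ACGTG was found in 24 of the 62 member windows (38.7%) and in 21.4% of all 35116 windows of the same length, and either form in 41 (66.1%) and in 48.5%. The list was chosen partly for known HIF targets, so this is a description of the list and not a finding. The windows printed are those of the members past 2-fold that have a single start in the table, with PGK1 as a bright glycolytic enzyme beside them, and capitals mark the motif matches.
ALDOC, chr17:28576846-28577145, minus strand: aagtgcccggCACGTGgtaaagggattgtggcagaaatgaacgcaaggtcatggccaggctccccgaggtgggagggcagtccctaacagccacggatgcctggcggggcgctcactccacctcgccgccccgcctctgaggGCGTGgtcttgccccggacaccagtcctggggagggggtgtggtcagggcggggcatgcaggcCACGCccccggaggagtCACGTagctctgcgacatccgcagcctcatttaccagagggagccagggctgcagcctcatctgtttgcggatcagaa
ANKRD37, chr4:185396591-185396890, plus strand: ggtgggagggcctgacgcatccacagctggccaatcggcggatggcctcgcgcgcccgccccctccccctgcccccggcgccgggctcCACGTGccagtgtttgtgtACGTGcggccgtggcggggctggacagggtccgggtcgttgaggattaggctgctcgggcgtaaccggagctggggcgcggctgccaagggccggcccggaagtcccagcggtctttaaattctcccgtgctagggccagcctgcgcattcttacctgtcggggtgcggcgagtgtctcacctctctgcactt
EGLN3, chr14:33951025-33951324, minus strand: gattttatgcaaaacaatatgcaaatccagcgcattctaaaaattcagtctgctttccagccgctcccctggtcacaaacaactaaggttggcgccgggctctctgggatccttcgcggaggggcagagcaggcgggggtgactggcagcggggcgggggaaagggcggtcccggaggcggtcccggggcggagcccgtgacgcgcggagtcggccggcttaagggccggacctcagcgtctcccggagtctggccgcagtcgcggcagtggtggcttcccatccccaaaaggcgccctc
CA12, chr15:63381797-63382096, minus strand: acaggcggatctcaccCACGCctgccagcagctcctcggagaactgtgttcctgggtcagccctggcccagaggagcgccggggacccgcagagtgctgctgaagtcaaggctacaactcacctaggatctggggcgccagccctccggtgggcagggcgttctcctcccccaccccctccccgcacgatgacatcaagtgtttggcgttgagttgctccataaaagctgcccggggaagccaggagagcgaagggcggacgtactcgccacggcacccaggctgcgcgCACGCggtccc
PGK1, chrX:78103998-78104297, plus strand: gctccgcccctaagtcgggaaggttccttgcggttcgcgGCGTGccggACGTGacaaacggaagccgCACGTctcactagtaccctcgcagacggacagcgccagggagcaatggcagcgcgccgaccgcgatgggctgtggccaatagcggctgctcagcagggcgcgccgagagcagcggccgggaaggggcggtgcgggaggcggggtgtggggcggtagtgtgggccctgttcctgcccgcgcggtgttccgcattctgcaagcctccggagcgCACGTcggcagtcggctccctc
The ALDOC window held 3 matches to ACGTG and 2 to GCGTG, the ANKRD37 window 3 to ACGTG, and the PGK1 window 3 and 1. The EGLN3 window held neither form, and the CA12 window held 2 matches to GCGTG. A match is a run of letters and not a measured site of binding.

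All 3 tested glucose transporter probes were lower, with a median log2 fold change of -1.18, where 23.3% of all tested probes were lower. SLC2A4 encodes GLUT4, the insulin-responsive transporter of muscle and fat. Its log2 signal was -3.52, -3.60 and -3.51 on the shCtrl arrays and -5.94, -6.41 and -6.48 on the shXBP-1s arrays. The groups were far apart in this dim probe, which was above background on all 6 arrays. The log2 fold change was -2.74 (SE 0.16, limma adjusted p = 7.79e-06), 15% of the control level, and was the largest fall among the members under the 75th percentile scaling. Under normexp, where the median over all tested probes was -0.41, it was -1.50 and did not pass (adjusted p = 0.123). With normexp and quantile normalization it was -0.77 (adjusted p = 6.38e-06).

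SLC2A3 encodes GLUT3, a high-affinity transporter best known from neurons. The tested SLC2A3 probe read -5.83, -5.90 and -5.65 in shCtrl and -6.69, -6.99 and -7.25 in shXBP-1s. It was above background on only 2 of the 3 shXBP-1s arrays, and the groups did not overlap. The log2 fold change was -1.18 (SE 0.20, limma adjusted p = 0.00207), was -1.07 and did not pass under normexp (adjusted p = 0.451), and was -0.16 with normexp and quantile normalization (adjusted p = 0.00238). In the normexp fit the median over all tested probes was -0.41. A dim HK2 probe, which was higher as reported, was at -0.71 there. The other SLC2A3 probe was above background on no array and was not tested. SLC2A14 is a near-identical paralog, so the SLC2A3 signal is uncertain.

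SLC2A1 encodes GLUT1, the main glucose transporter of squamous epithelium and a known HIF target. Its log2 signal was 4.80, 4.89 and 4.85 in shCtrl and 4.39, 4.46 and 4.51 in shXBP-1s. Every knockdown array was below every control array, with a log2 fold change of -0.39 (SE 0.05, limma adjusted p = 6.32e-04), 76.3% of the control level. Without scaling it was -0.12 (adjusted p = 0.315) and under normexp -0.24 (adjusted p = 0.451), and it passed in neither.

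The 17 tested probes for glycolytic enzymes had a median log2 fold change of -0.19, with 9 lower (52.9%), 2 higher (11.8%) and 6 that did not pass. Over all tested probes 23.3% were lower and 18.4% higher. ALDOC, the aldolase isoform enriched in brain and induced by HIF, had log2 signals of 0.28, 0.16 and 0.28 in shCtrl and -1.03, -1.17 and -1.28 in shXBP-1s. The groups were separated by more than 1 log2 unit. Its log2 fold change was -1.40 (SE 0.07, limma adjusted p = 5.96e-06), 37.9% of the control level. PFKM, the muscle isoform of phosphofructokinase, read 2.49, 2.47 and 2.47 in shCtrl and 1.38, 1.39 and 1.37 in shXBP-1s. Replicates were tight, with an SD of 0.01 in each group, and the log2 fold change was -1.10 (SE 0.04, limma adjusted p = 1.67e-06), 46.8% of the control level.

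The other phosphofructokinase isoforms did not follow PFKM past the test. The probes for PFKP, the platelet isoform, had log2 fold changes of -0.01 (adjusted p = 0.931, limma) and 0.00 (adjusted p = 0.986), and the probe for PFKL, the liver isoform, 0.23 (adjusted p = 0.104). The difference between isoforms was not tested.

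GPI, which converts glucose-6-phosphate to fructose-6-phosphate, fell by 0.60 on the log2 scale (limma adjusted p = 1.59e-04). ENO2, the neuronal enolase, fell by 0.48 (adjusted p = 0.00785), and ENO1, the common enolase, by 0.27 (adjusted p = 0.0149). PGK1, the first ATP-yielding enzyme of the pathway, with as many ACGTG matches in its window as ALDOC, fell by 0.25 (adjusted p = 0.0115), PGAM1, which moves the phosphate of phosphoglycerate, by 0.20 with its brighter probe (adjusted p = 0.0178), and TPI1, which interconverts the triose phosphates, by 0.19 (adjusted p = 0.0265). The dimmer PGAM1 probe was at -0.13 (adjusted p = 0.118). These falls, apart from that of GPI, were sensitive to the scaling. Without it ENO2 was at -0.21 (adjusted p = 0.249), ENO1 at 0.01, PGK1 at 0.02 and TPI1 at 0.09, and ENO2 was at -0.29 with normexp and quantile normalization (adjusted p = 0.119).

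GAPDH, the glyceraldehyde-3-phosphate dehydrogenase that is often used as a loading control, had log2 signals of 5.67, 5.58 and 5.65 in shCtrl and 5.41, 5.38 and 5.35 in shXBP-1s. Its 10 spots per array had SDs of 0.036 to 0.092, and the groups did not overlap. The log2 fold change was -0.26 (SE 0.05, limma adjusted p = 0.00454), and it was 0.02 without scaling (adjusted p = 0.893) and -0.09 under normexp (adjusted p = 0.789).

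PKM, pyruvate kinase, had log2 signals of 2.81, 3.01 and 2.97 in shCtrl and 2.85, 2.78 and 2.71 in shXBP-1s. The groups overlapped, and the log2 fold change of -0.15 (SE 0.07) did not pass with all arrays (limma adjusted p = 0.109), although it did without shCtrl array 1 (-0.21, adjusted p = 0.0211).

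The hexokinases, which trap glucose by phosphorylation, were the enzymes with probes that rose. HK1, the widely expressed form, rose by 0.31 (limma adjusted p = 0.00313). The brighter HK2 probe read 3.37, 3.34 and 3.39 in shCtrl and 3.33, 3.44 and 3.50 in shXBP-1s, overlapping groups with a log2 fold change of 0.06 (SE 0.06, adjusted p = 0.450). A much dimmer HK2 probe read -5.69, -5.42 and -5.72 in shCtrl and -4.97, -5.22 and -5.16 in shXBP-1s. That probe rose by 0.50 (SE 0.14, adjusted p = 0.0244) and was no longer past the threshold with the slide as a block (0.58, adjusted p = 0.0605). It was at -0.71 under normexp (adjusted p = 0.452), where the median over all tested probes was -0.41. HK2 is the hexokinase known as a HIF target in tumours, and its pair of probes did not give the same call.

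Of 7 probes for the lactate and pyruvate branch, 5 were lower (71.4%) and none was higher, with a median log2 fold change of -0.40. Over all tested probes 23.3% were lower and 18.4% higher. LDHA, the lactate dehydrogenase subunit that favours lactate formation, had log2 signals of 6.30, 6.27 and 6.40 in shCtrl and 6.15, 6.23 and 6.28 in shXBP-1s with its brighter probe. The dimmer LDHA probe read 5.23, 5.04 and 5.14 in shCtrl and 5.04, 4.94 and 4.93 in shXBP-1s. Both probes overlapped between groups and did not pass, at -0.10 (SE 0.06, limma adjusted p = 0.212) and -0.16 (SE 0.06, adjusted p = 0.0760). LDHB, the subunit that favours pyruvate, fell by 0.41 (adjusted p = 5.16e-04) and 0.28 (adjusted p = 0.00903) with its probes.

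The lactate exporters fell further. SLC16A3 encodes MCT4, the exporter of glycolytic cells, and read 5.13, 5.20 and 5.19 in shCtrl and 4.32, 4.48 and 4.63 in shXBP-1s. All knockdown arrays were lower, and the log2 fold change was -0.70 (SE 0.08, limma adjusted p = 2.59e-04), 61.7% of the control level, and was -0.42 under normexp (adjusted p = 0.0898). SLC16A1, which encodes the broadly expressed MCT1, fell by 0.54 (adjusted p = 6.00e-05). PDK1, the kinase that restrains the oxidation of pyruvate in mitochondria, fell by 0.40 (adjusted p = 2.31e-04).

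The bifunctional enzymes set the level of fructose-2,6-bisphosphate, the activator of phosphofructokinase. PFKFB3, the form with the strongest activating side, had 2.14, 1.98 and 1.92 in shCtrl and 1.28, 1.16 and 1.13 in shXBP-1s with its brighter probe. The groups were clearly apart, with a log2 fold change of -0.83 (SE 0.07, limma adjusted p = 4.63e-05), 56.4% of the control level. The dimmer PFKFB3 probe was at -0.39 (adjusted p = 0.0574), and PFKFB4 was at -0.17 (adjusted p = 0.155).

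**Figure D3:**
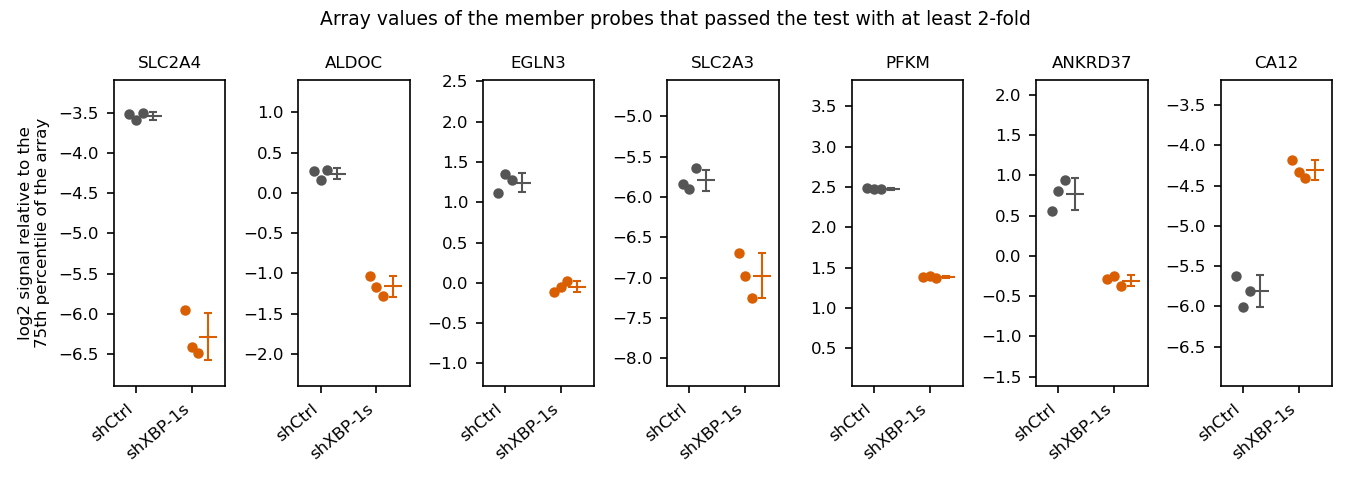
Log2 signal relative to the 75th percentile of the array, for each of the 3 shCtrl (grey) and 3 shXBP-1s (orange) arrays, of the 7 member probes that passed the test with at least 2-fold, with mean and SD beside the points. Every panel spans the same number of log2 units, 6 probes are lower and CA12 is higher in shXBP-1s, and no panel shows overlap.

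Among the HIF factors, HIF1A, the widely expressed alpha subunit, was lower with both probes. The brighter HIF1A probe read 5.08, 5.21 and 5.20 in shCtrl and 4.73, 4.85 and 4.96 in shXBP-1s, and the dimmer one 3.67, 3.69 and 3.73 in shCtrl and 3.55, 3.41 and 3.29 in shXBP-1s. Neither probe overlapped between groups. Their log2 fold changes were -0.32 (SE 0.07, limma adjusted p = 0.00850) and -0.28 (SE 0.07, adjusted p = 0.0125). Once the slide entered as a block the values were -0.23 (adjusted p = 0.113) and -0.26 (adjusted p = 0.0993), and neither passed. Without scaling they were -0.04 (adjusted p = 0.721) and -0.01 (adjusted p = 0.946), and neither passed under normexp (adjusted p = 0.518 and 0.451). HIF1A mRNA is known to say little about the level of its protein, which is set mainly by degradation and was not measured here.

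EPAS1, which encodes HIF-2 alpha, had 4.64, 4.82 and 4.67 in shCtrl and 4.69, 4.79 and 4.88 in shXBP-1s. ARNT, the constant partner of the alpha subunits, had -1.60, -1.67 and -1.92 in shCtrl and -1.55, -1.71 and -1.88 in shXBP-1s. Both overlapped between the groups, with log2 fold changes of 0.08 (SE 0.07, limma adjusted p = 0.418) and 0.02 (SE 0.11, adjusted p = 0.901). EPAS1 passed as higher under quantile normalization (0.17, adjusted p = 0.0335) and with normexp and quantile normalization (0.16, adjusted p = 0.0270). It also passed without scaling (0.35, adjusted p = 0.00378), where the median over all tested probes was 0.25. It did not pass under normexp (adjusted p = 0.451) or with the deposited log2 values (adjusted p = 0.0654).

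The prolyl hydroxylases moved in opposite directions. EGLN3, which is itself a known HIF target although its window held no match, had log2 signals of 1.12, 1.34 and 1.27 in shCtrl and -0.11, -0.05 and 0.02 in shXBP-1s. The knockdown arrays lay more than 1 log2 unit below the controls, with a log2 fold change of -1.29 (SE 0.07, limma adjusted p = 6.08e-06), 40.9% of the control level. EGLN1, the main oxygen sensor under normal oxygen, read 1.17, 1.28 and 1.22 in shCtrl and 1.49, 1.46 and 1.52 in shXBP-1s. It was higher on every knockdown array, by 0.27 (SE 0.05, adjusted p = 0.00260).

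The carbonic anhydrases, which buffer acid at the cell surface, also differed in sign. CA9, a standard marker of tumour hypoxia, had 0.77, 0.71 and 0.79 in shCtrl and 0.37, 0.21 and 0.02 in shXBP-1s. All knockdown arrays were lower, with a log2 fold change of -0.56 (SE 0.09, limma adjusted p = 0.00123), 68.0% of the control level. Without scaling it was -0.28 and did not pass (adjusted p = 0.0988). CA12 had -5.62, -6.00 and -5.80 in shCtrl and -4.18, -4.33 and -4.41 in shXBP-1s. Its groups were more than 1 log2 unit apart, and the log2 fold change was 1.50 (SE 0.14, adjusted p = 8.14e-05), 283% of the control level. CA12 is a dim probe, and its value was -0.43 under normexp (adjusted p = 0.616), where the median over all tested probes was -0.41. With normexp and quantile normalization it was 0.37 (adjusted p = 8.72e-05).

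The secreted HIF targets were mixed. ANGPTL4, an inhibitor of lipoprotein lipase, had 5.0, 5.25 and 5.12 in shCtrl and 4.27, 4.30 and 4.39 in shXBP-1s, with no overlap. Its log2 fold change was -0.81 (SE 0.07, limma adjusted p = 7.20e-05), 57.2% of the control level. ADM, the vasodilator peptide adrenomedullin, fell by 0.40 (adjusted p = 0.00207). VEGFA, the main angiogenic growth factor, had 1.78, 1.80 and 1.83 in shCtrl and 2.19, 2.20 and 2.16 in shXBP-1s with its brighter probe, which rose by 0.38 (SE 0.04, adjusted p = 1.74e-04). The dimmer VEGFA probe read -1.22, -1.23 and -1.32 in shCtrl and -1.19, -1.19 and -1.24 in shXBP-1s. It did not pass (0.05, SE 0.05, adjusted p = 0.502). The probes carry accessions of different VEGFA transcript variants.

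Among the remaining HIF targets, ANKRD37, an ankyrin repeat protein, had 0.55, 0.81 and 0.94 in shCtrl and -0.29, -0.26 and -0.38 in shXBP-1s. The groups did not overlap, but shCtrl array 1, on the same slide as the knockdown arrays, was the lowest control. The log2 fold change was -1.08 (SE 0.10, limma adjusted p = 6.84e-05), and -0.86 with the slide as a block (adjusted p = 2.75e-04), under 2-fold. BNIP3L, a mitophagy receptor, fell by 0.97 with its brighter probe (adjusted p = 2.67e-06) and by 0.20 with the dimmer one (adjusted p = 0.0152), and its relative BNIP3 fell by 0.32 (adjusted p = 0.00440).

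NDRG1, a stress-responsive gene that hypoxia induces, went the other way. Its log2 signal was 4.23, 4.15 and 4.20 in shCtrl and 5.06, 4.99 and 5.02 in shXBP-1s. Replicates were tight and the groups were well apart, with a log2 fold change of 0.83 (SE 0.05, limma adjusted p = 7.79e-06), 178% of the control level, and a range of 0.81 to 0.85 when single arrays were left out. P4HA2, a subunit of the collagen prolyl hydroxylase, had 2.71, 2.79 and 2.78 in shCtrl and 3.10, 3.23 and 3.39 in shXBP-1s, and it rose by 0.48 (SE 0.07, adjusted p = 0.00116). P4HA1, the alternative subunit of the same enzyme, read 3.35, 3.96 and 4.10 in shCtrl and 3.66, 3.60 and 3.51 in shXBP-1s. Here shCtrl array 1 stood apart and was the lowest of the 6. P4HA1 did not pass with all arrays (-0.22, SE 0.17, adjusted p = 0.354), was lower without shCtrl array 1 (-0.44, adjusted p = 0.00152), and was at 0.24 with the slide as a block (adjusted p = 0.0741).

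**Figure D4:**
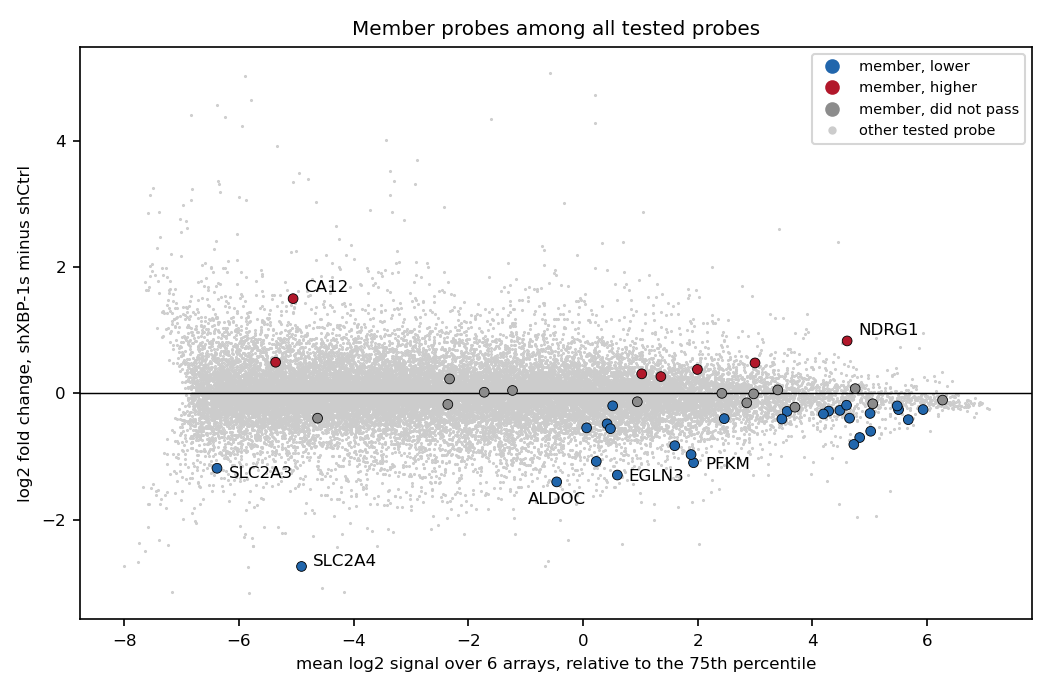
Log2 fold change of each tested probe against its mean log2 signal over the 6 arrays relative to the 75th percentile, with the members in colour over the 27624 tested probes in grey. Most members lie to the right of 0 on the horizontal axis, SLC2A4, SLC2A3 and CA12 are dim, and NDRG1 stands above the other bright members at 0.83.

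The slide layout leaves 1 control array beside the 3 knockdown arrays on the same slide. Against shCtrl array 1 alone, the mean of the shXBP-1s arrays differed by -2.76 for SLC2A4, -1.44 for ALDOC, -1.16 for EGLN3, -1.14 for SLC2A3, -1.11 for PFKM, -0.86 for ANKRD37 and 1.31 for CA12. The direction was that of the whole comparison in each of these 7 probes. It could not have differed, because the groups did not overlap in any of them, so this is no separate check. A block for the slide returns these same differences as its log2 fold changes, since only shCtrl array 1 shares a slide with the knockdown arrays. With the slide as a block, 20 member probes were lower and 6 were higher, against 17.5% lower and 13.9% higher over all tested probes in the same fit, and the probes that no longer passed were those of ENO1, PGK1, TPI1, BNIP3 and HIF1A and the dimmer ones of HK2, LDHB and BNIP3L.

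The HIF targets without a direct part in glycolysis (pH, secreted and other targets) had 13 tested probes, of which 7 were lower (53.8%) and 4 higher (30.8%) with a median of -0.22. Over all tested probes 23.3% were lower and 18.4% higher. NDRG1, P4HA2 and the brighter VEGFA probe rose in the cells in which EGLN3, CA9, ANGPTL4, ADM and ANKRD37 fell.

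A wider list of 57 genes of glycolysis and glucose use outside the members had 60 tested probes, 22 lower (36.7%), 13 higher (21.7%) and 25 that did not pass. Its median log2 fold change was -0.11. Over all tested probes 23.3% were lower and 18.4% higher, with a median of -0.02. The single 2-fold change was in SLC2A12, which encodes another facilitative glucose transporter and fell by 1.34 (SE 0.15, limma adjusted p = 2.36e-04). Over all tested probes 4.9% were called at 2-fold in either direction. A wider list of 48 HIF pathway genes had 56 tested probes, 16 lower (28.6%), 14 higher (25%) and 26 that did not pass. These shares were near those over all tested probes. The median of this list was -0.10. At 2-fold 0 of its probes were lower and 5 higher, where 2.61% of all tested probes were lower and 2.29% higher. Rises of at least 2-fold included those of EDN1, the vasoconstrictor endothelin-1, with 1.72 and 1.55 for its probes, of 1 of 2 probes of ARNT2, a partner of HIF alpha subunits (1.35, with -0.05 for the other probe), and of ERO1A, an oxidase of the endoplasmic reticulum (1.20).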

How the data were processed

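Total RNA of the 6 samples was hybridised to 1-colour arrays, 1 array per sample. For each array the authors deposited scanner output from Agilent Feature Extraction, whose intensity values are background-subtracted signals of single spots. They also deposited log2 values, 1 per probe and array, with a median of 6.28 on every array. RMA is named in the submitters' processing notes, and the centring and floor of that table are otherwise not given in the sources used here. The labels describe a NimbleGen labelling procedure, whereas the scanner files and the study's methods give an Agilent array.

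From the intensities, log2 minus the 75th percentile of each array over non-control spots was taken, spots flagged as non-uniform or as outliers were dropped (230 to 377 per array), and each probe was the mean of its spots. Of 34127 probes, 25771 were named by matching their accessions to RefSeq. Probes that the scanner software called well above background on every array of either group, 27624 in number, entered a 2-sided test with limma 3.58.1 (lmFit, eBayes with trend) in R 4.3.3 and Benjamini-Hochberg adjustment over all of them. A gene with 2 probes is given by both, named brighter and dimmer. On simulated data with these 27624 probes, 193 of 200 changed probes were recovered with 0 false calls. In the real comparison 41.7% of the tested probes were called, a far larger share than was changed in the simulation. The simulation therefore does not give the error rate of the calls reported here, least of all of the small changes. No exact permutation test of 3 arrays against 3 can give a p below 0.1. The number of arrays limits the precision.

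Values on all arrays are given for XBP1, for members past the test with at least 2-fold, and for SLC2A1, HK2, GAPDH, PKM, LDHA, HIF1A, EPAS1, ARNT, VEGFA and CA9 whatever they did; those of PFKFB3, SLC16A3, ANGPTL4, EGLN1, NDRG1, P4HA1 and P4HA2 were added after their values were seen. From the wider lists, at most 5 genes in each direction past 2-fold are named. A gene of the wider HIF list that meets this rule is not reported here. The members and lists were chosen with earlier results of these data known. Alternatives were quantile normalization, normexp background correction (offset 50) with either scaling, the table of log2 values, no or a stricter filter on dim probes, eBayes without its trend, the methods' t-test, a block for the slide or for the replicate number, and leaving out each array.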

Additional observations from a re-analysis of the deposited data

How the results depend on the processing

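Over the 49 member probes and their alternatives, 760 of 881 refits kept the direction and the side of the threshold, 71 were no longer past it, 13 newly passed, and 37 changed sign. With 28 member probes lower and 7 higher as reported, normexp background correction left 12 lower where 8.86% of all tested probes were lower, and the absence of scaling, tried once the data were known, gave 11 lower and 11 higher where 6.86% of all tested probes were lower and 33.6% higher. At 2-fold, against 6 lower and 1 higher, normexp left 2 lower and 0 higher, normexp with quantile normalization 3 lower and 0 higher, and no scaling 3 lower and 2 higher. As reported, 2.61% of all tested probes were lower and 2.29% higher at 2-fold. These 2-fold shares were not counted in the alternatives. The methods' t-test gave 24 lower and 7 higher after adjustment, and 28 and 7 at an unadjusted p, the latter also tried once the data were known. Over all tested probes it gave 19.3% lower and 14.0% higher after adjustment, and 24.7% and 19.3% without it. Leaving out single arrays gave 24 to 30 lower and 6 to 7 higher, and at 2-fold 5 to 6 lower and 1 higher. Without a fold limit, the shares over all tested probes were then 18.2% to 25.1% lower and 13.0% to 21.0% higher. ANKRD37 dropped under 2-fold without shCtrl array 3 (-0.99). Without shCtrl array 1, PKM, PFKFB4 and P4HA1 passed as lower. ENO1, PGAM1, TPI1 and the dimmer BNIP3L probe no longer passed without shCtrl array 3 or without shXBP-1s array 2. TPI1 was also lost without shCtrl array 1 or shXBP-1s array 3. The dimmer LDHA probe passed as lower without shCtrl array 2 (-0.213), the dimmer PGAM1 probe without shXBP-1s array 1 (-0.178), and the dimmer PFKFB3 probe (-0.535), with PFKL as higher, without shXBP-1s array 3. The dimmer HK2 probe did not pass without shCtrl array 3 or any single shXBP-1s array.

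Without scaling, the sign turned to positive for ENO1 (0.005), GAPDH (0.017), PFKP (0.267), PGAM1 (0.076 and 0.142), PGK1 (0.018), PKM (0.125), TPI1 (0.087), LDHA (0.168 and 0.109), PFKFB4 (0.100), the dimmer BNIP3L probe (0.077) and P4HA1 (0.055). Under normexp, where the median over all tested probes was -0.414, it turned for the dimmer HK2 probe (-0.715), PFKL (-0.157), PFKP (0.095), LDHA (0.007), the dimmer LDHB probe (0.000), ARNT (-0.194), CA12 (-0.431), the dimmer VEGFA probe (-0.011) and P4HA1 (0.074). Of these, the probes for CA12, HK2 and LDHB had passed the test as reported, as had those for ENO1, GAPDH, PGK1, TPI1 and BNIP3L and the brighter PGAM1 probe. The brighter PFKP probe was also positive under quantile normalization (0.056), normexp with quantile normalization (0.017) and the deposited log2 values (0.062), where LDHA was at 0.005. With the slide as a block the dimmer PFKP probe (-0.018), PFKFB4 (0.002), ARNT (-0.108) and P4HA1 (0.237) changed sign. When single arrays were left out, PFKP ranged from -0.023 to 0.015 and from -0.073 to 0.099 with its probes, and ARNT from -0.075 to 0.103. The cause of these changes was not tested.

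The replicate numbers of the labels do not pair the samples: deviations of same-numbered arrays correlated at -0.016, 0.117 and -0.116. With the replicate number as a block, 28 member probes were lower and 6 higher, and at 2-fold 6 lower and 1 higher. In that fit 22.1% of all tested probes were lower and 18.1% higher without a fold limit. The dimmer HK2 probe was the single call that changed (adjusted p = 0.0536).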
